A study of Mus musculus with 4 samples.

Results

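The 14-3-3 proteins are encoded by 7 genes in the mouse, and all 7 were found by exact symbol among the 32531 gene names of the count tables. They are Ywhaz (zeta), Ywhag (gamma), Ywhae (epsilon), Ywhab (beta), Ywhah (eta), Ywhaq (theta, also called tau) and Sfn (sigma). The RNA came off ribosomes of the deep cerebellar nuclei, which carry the output of the cerebellum, in adult, untreated Slc17a6-EGFP/Rpl10a (JX883) transgenic mice. The method, TRAP, short for translating ribosome affinity purification, uses an EGFP tag on the ribosomal protein Rpl10a to pull down polysomes of the cells that make the tagged protein. The line is named for Slc17a6, a vesicular glutamate transporter of glutamatergic neurons, so the pulldown reaches cells in which that transgene is active and not a sorted cell type. All 4 libraries belong to 1 group, each was made from 3 pooled mice, and replicates 1 to 4 carry the library numbers 1300, 1301, 1302 and 1476. The sources used here give no age in weeks and no sex. There was no comparison group, so the results are levels, ratios of members inside each library, and contrasts of single libraries with the rest. Nothing in the labels says that the pools came from separate litters or days, and p-values measure only the spread between these libraries.

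14-3-3 proteins are small acidic adaptors that work as dimers. Each subunit holds a groove that binds a client protein at a phosphorylated serine or threonine, and binding can move the client, change its shape or cover a signal on it. They are abundant in brain, where clients act in kinase signalling, transcription factor export from the nucleus, transmitter synthesis, channel trafficking and neuronal migration. Sigma is known mainly from epithelia, where it acts in the response to DNA damage.

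Gene counts per library ran from 9621762 to 10988373. Levels are given in CPM, a gene's counts scaled to a fixed library total, and 3 counts, the most that a count of 0 allows, equal 0.273 to 0.312 CPM (counting error only). Rn45s, the ribosomal RNA precursor, took 4.99, 14.2, 13.6 and 4.92% of gene counts in replicates 1 to 4. For the labelled cell type, levels were read for 6 markers of glutamatergic nuclear neurons. All 6 reached 1 CPM in every library, led by Slc17a6 at 2143 ± 153 CPM (SD, n = 4). Markers of other cells were present too. All 5 granule cell markers, 4 of 5 Purkinje cell markers and 4 of 5 astrocyte and Bergmann glia markers also reached 1 CPM in every library. So did 3 of 4 inhibitory neuron markers, 3 of 4 vessel markers and 1 of 5 microglia markers. Reaching 1 CPM thus does not tell most of these cell types apart. The summed levels of other cells' markers were highest in replicate 3 for several lists. The sum of 5 Purkinje cell markers (led by Itpr1, 886 ± 589 CPM) was 817, 1164, 2471 and 541 CPM in replicates 1 to 4. For 5 granule cell markers (led by Cbln3, 264 ± 123 CPM) it was 458, 487, 986 and 384 CPM, and for 4 markers of inhibitory nuclear neurons (led by Gad2, 120 ± 82.4 CPM) it was 114, 173, 369 and 72.3 CPM. For 5 astrocyte and Bergmann glia markers (led by Slc1a3, 67.9 ± 56.6 CPM) it was 116, 147, 263 and 106 CPM. Vessel markers (led by Flt1, 18.7 ± 9.46 CPM) summed to between 11.3 and 45.2 CPM, and microglia markers (led by Csf1r, 4.02 ± 1.39 CPM, with C1qa at 0 in every library) to between 3.85 and 11.5 CPM. In bulk RNA, fewer cells of a type and less RNA per cell cannot be told apart.

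The members lie on 6 chromosomes in mm10, by the GENCODE M21 annotation of the same assembly. Ywhaz is on chromosome 15 at 36770770 to 36796929, minus strand, and Ywhae on chromosome 11 at 75732869 to 75765845, plus strand. Ywhab is on chromosome 2 at 163994960 to 164018588, plus strand, and Ywhaq on chromosome 12 at 21390071 to 21417637, minus strand. Chromosome 5 holds Ywhag at 135908409 to 135934616, minus strand, and Ywhah at 33018816 to 33027966, plus strand. Sfn is on chromosome 4 at 133600556 to 133602168, minus strand, with 1 annotated transcript. All 7 are protein-coding. Ywhaq shares 248 exon bases with Gm4419, an antisense gene on the opposite strand, and the counting is not stated to use strand, so reads of these bases cannot be told apart. No other member shared exon bases with a neighbouring gene.

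How far reads can be assigned to 1 member depends on how alike the genes are, so their coding sequences were aligned. Of 726 alignment columns without a gap, 294 (40.5%) held the same base in all 7 members. Ywhag and Ywhah were the closest pair at 78.7% identical coding bases, followed by Ywhaz and Ywhab at 74.7% and Ywhaz and Ywhaq at 74.1%. Ywhae was the most distant, between 60 and 63% identical to the other 6. The most alike stretch of 60 coding bases is printed here because it is where members are hardest to separate. Capitals mark a base that differs from the most common base of that column, and positions count from the A of the start codon.
Ywhaz, coding bases 625 to 684: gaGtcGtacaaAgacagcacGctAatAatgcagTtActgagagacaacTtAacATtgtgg
Ywhag, coding bases 640 to 699: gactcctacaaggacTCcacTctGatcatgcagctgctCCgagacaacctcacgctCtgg
Ywhae, coding bases 634 to 693: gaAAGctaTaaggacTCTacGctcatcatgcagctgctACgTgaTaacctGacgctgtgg
Ywhab, coding bases 631 to 690: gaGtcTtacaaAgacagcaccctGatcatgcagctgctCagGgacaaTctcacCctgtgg
Ywhah, coding bases 640 to 699: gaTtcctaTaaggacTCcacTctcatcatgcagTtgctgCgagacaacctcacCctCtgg
Ywhaq, coding bases 625 to 684: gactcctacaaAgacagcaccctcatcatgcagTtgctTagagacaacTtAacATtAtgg
Sfn, coding bases 631 to 690: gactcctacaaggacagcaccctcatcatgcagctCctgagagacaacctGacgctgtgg
Even here 36 of 60 columns were the same in all members, and each member differed from the most common base at between 2 and 13 positions. The longest run of identical coding bases between any pair was 30, between Ywhag and Ywhah. No window of 50 bases was shared between members.

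Copies outside the family were a larger matter, since reads that align in more than 1 place were kept apart from gene counts (14.2 to 20.6% of all counted reads per library, per the file's own summary rows). Every 50-base window of each member's transcripts was looked up, on both strands, in all other annotated transcripts. For Ywhaq, 657 of 689 coding windows (95.4%) occurred in another gene, and for Ywhaz 644 of 689 (93.5%). For Ywhah the share was 319 of 692 (46.1%) and for Sfn 235 of 698 (33.7%), while for Ywhae, Ywhab and Ywhag it was 0. Among genes that shared at least 20 windows, the matches of Ywhaz, Ywhah and Sfn were processed pseudogenes, which are intronless copies of an mRNA. For Sfn, 2 of 3 genes with a shared window reached that number. The nearest copy of Ywhaz, Gm4202, was 99.9% identical over 733 bases, and that of Ywhah, Gm12428, was 98.1% identical over 680 bases. For Ywhaq 86 genes shared a window, and 9 of them reached that number, with between 27 and 584 windows each. Among the 9 were Gm2423 (99.7% identical over 733 bases), Ywhaq-ps3 (99.6% over 738 bases) and a transcript of Cdk5rap2. Only 2 copies of Ywhaq, Gm7977 and Cdk5rap2, were among the counted gene names. Gm7977, which is 91.6% identical to Ywhaq, had 0 counts in all 4 libraries, and Cdk5rap2 stood at 8.91 ± 2.80 CPM. The nearer copies Gm2423 and Ywhaq-ps3, and Gm4202 and Gm12428, were not among the counted names. The counts thus cannot show how many reads these copies drew. Over whole transcripts, untranslated parts included, the share of windows found elsewhere was 23.9% for Ywhaq, 15.2% for Ywhaz, 15.0% for Sfn, 8.62% for Ywhah and 0.215% for Ywhag.

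**Figure D1:**
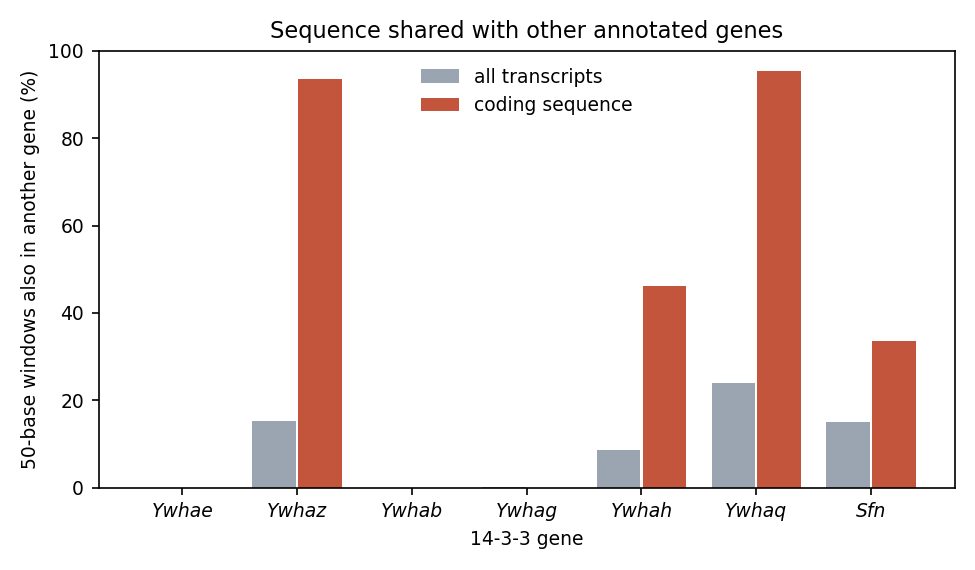
Percent of 50-base windows of each 14-3-3 gene (x axis) that occur in another annotated gene (y axis), over all its transcripts (grey) and over the coding sequence alone (red). The coding bars of Ywhaq (95.4%) and Ywhaz (93.5%) are near the top of the axis, and those of Ywhae, Ywhab and Ywhag are at 0.

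Together the 7 genes took about 1% of all gene counts. The summed level was 10911, 9481, 8448 and 12390 CPM in replicates 1 to 4, a mean of 10307 ± 1717 CPM (SD, n = 4), or 1.03 ± 0.172% of gene counts. Replicate 4 was highest and replicate 3 lowest. With Rn45s left out of the totals the share was 1.15, 1.10, 0.978 and 1.30%, in the same order of libraries. The summed levels of the Purkinje cell, granule cell, inhibitory neuron and astrocyte markers ran in the opposite order (lowest in replicate 4, then 1, 2 and 3). Other lists did not. The glutamatergic nuclear markers summed to 2949, 2491, 2461 and 2992 CPM in replicates 1 to 4, the same order as the family. Slc17a6 made up most of that sum, and of the 6 markers only Meis2 had the family's order. Lhx2, for example, was lowest in replicate 4 (18.7 CPM) and Tbr1 lowest in replicate 1 (1.25 CPM). The vessel and microglia sums followed neither order. The part of these cells in the family's spread was not tested. Snap25, a synaptic fusion protein gene on none of these lists, had the family's order of libraries, at 20112, 18110, 17886 and 24379 CPM in replicates 1 to 4. Per kilobase of exon the family summed to 2791 ± 456 CPM per kb, next to 2963 ± 443 for Snap25 and 397 ± 28.4 for Slc17a6. Snap25 was the most abundant messenger in these libraries by CPM, at 20122 ± 3009, well above the family sum. Its nearness to the family per kilobase thus rests on the division by length.

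Members were compared with each other as CPM per kilobase of union exon length, that is, all its annotated exonic bases. Ywhae and Ywhaz led, Ywhab and Ywhag came next, then Ywhah, with Ywhaq far below and Sfn near the limit of detection.

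Ywhae, which prefers to pair with other 14-3-3 isoforms and acts in neuronal migration through its client Ndel1, stood at 936, 781, 658 and 930 CPM per kb in replicates 1 to 4. Its mean was 826 ± 133 CPM per kb (SD, n = 4), from 2402, 2006, 1690 and 2389 CPM before division by length. Ywhaz, which binds clients of kinase and survival signalling such as Bad, stood at 919, 650, 594 and 1042 CPM per kb, a mean of 801 ± 214, from 3784, 2676, 2446 and 4290 CPM. Replicates 1 and 4 were above replicates 2 and 3 in both genes. Among the 23890 names with a length, Ywhae ranked between 7 and 10 and Ywhaz between 8 and 13 in the 4 libraries.

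Ywhab, the beta isoform, stood at 519, 475, 409 and 522 CPM per kb, a mean of 481 ± 53.0. Ywhag, the gamma isoform, known for its high level in brain and for variants that cause epileptic encephalopathy, stood at 364, 419, 367 and 540 CPM per kb, a mean of 423 ± 82.3. The ranges of these genes overlapped. In Ywhag replicate 4 stood above the rest, and replicates 1 and 3 were lowest.

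Ywhah, the eta isoform, studied early as an activator of tyrosine and tryptophan hydroxylase, stood at 226, 213, 224 and 209 CPM per kb, a mean of 218 ± 8.28. By library totals the 4 libraries differed by a factor of only 1.08 between the lowest and the highest. With Rn45s left out of the totals, Ywhah ran from 814 CPM in replicate 4 to 962 CPM in replicate 3, before division by length. Ywhaq stood at 41.4, 31.2, 25.6 and 65.2 CPM per kb, a mean of 40.9 ± 17.5, and its highest library exceeded its lowest by 2.55 times. It ranked between 460 and 1536 by library, far below the other brain isoforms. Counting only the windows found in no other gene as its length raised Ywhaq to 53.8 ± 23.1 CPM per kb, still the lowest of the 6 YWHA genes. How many of its reads were set aside as not unique was not tested.

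Sfn had 1, 34, 2 and 1 counts in replicates 1 to 4. Replicate 2 thus stood at 3.30 CPM (exact Poisson 95% interval 2.28 to 4.61, counting error only), and the other libraries at 0.0910 to 0.192 CPM, below the level of 3 counts. Of 7 epithelial markers 0 reached 1 CPM in every library. Krt5 and Krt8 had no count in any library, Krt14 had 3 counts in replicate 2 alone, and Cdh1, the epithelial cadherin, stood at 3.22, 5.14, 0.287 and 0 CPM. The sum of the 7 markers (led by Krt10, 2.53 ± 2.05 CPM) was 9.87, 7.37, 0.862 and 5.28 CPM, so it was not highest in the library where Sfn was. Epcam alone gave 3.43 CPM of the sum in replicate 1 (33 counts) and had 0 counts in the other libraries. Single markers differed in their highest library. Cdh1, Krt14 and Krt18 were each highest in replicate 2, as Sfn was, Krt10 in replicate 4 and Epcam in replicate 1. The part of the 7 markers in the Sfn counts was not tested.

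**Figure D2:**
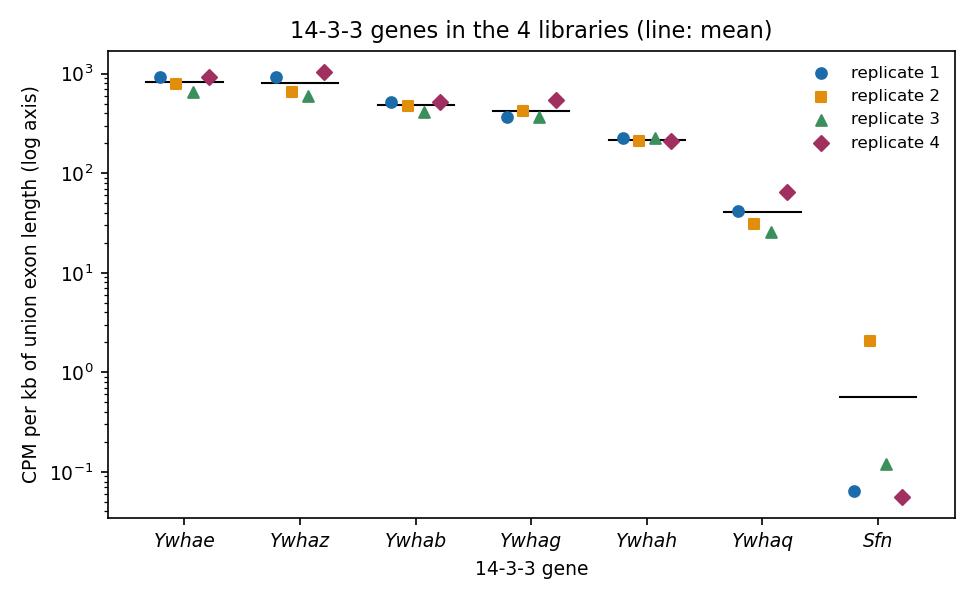
CPM per kilobase of union exon length on a log axis (y) for each 14-3-3 gene (x) in the 4 libraries, 1 symbol per replicate, with a line at the mean. Ywhae and Ywhaz lie near 800, Ywhah shows almost no spread, and Sfn is above 1 in replicate 2 only.

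Neighbouring members were compared by the log2 ratio within each library. An exact two-sided sign-flip permutation test over 4 libraries was used, with Benjamini-Hochberg adjustment over 6 pairs. The neighbours were set by the mean levels in these same libraries, so the test cannot decide the order. The smallest p this design allows is 0.13, so no pair could pass 0.05. Ywhae was above Ywhaz in 3 of 4 libraries. Their log2 ratio was 0.03, 0.27, 0.15 and -0.16 in replicates 1 to 4, a mean of 0.07 ± 0.18 (SD, n = 4, exact p = 0.5, adjusted 0.5). Ywhaz exceeded Ywhab in 4 of 4 libraries by 0.70 ± 0.25, a fold of 1.63 (exact p = 0.13, adjusted 0.188). Ywhab and Ywhag differed by 0.20 ± 0.23, with Ywhag higher in replicate 4 (exact p = 0.25, adjusted 0.3). Ywhag exceeded Ywhah in 4 of 4 libraries by 0.94 ± 0.32, a fold of 1.92. Ywhah exceeded Ywhaq in 4 of 4 libraries by 2.51 ± 0.62, a fold of 5.68, and Ywhaq exceeded Sfn in all 4. The last 3 pairs each had an exact permutation p of 0.13, adjusted 0.188, the smallest possible. Thus Ywhae with Ywhaz, and Ywhab with Ywhag, were neighbours whose mean log2 ratio was smaller than its SD between libraries.

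Both of these close pairs turned with the length used. Coding length here counts all coding bases over a gene's transcripts. For Ywhae it is 863 bases, against 768, stop codon included, in the transcript used for the alignment, which lowers Ywhae under this length. With coding length Ywhaz stood above Ywhae (log2 ratio Ywhae to Ywhaz -0.84), and with the windows found in no other gene it did so by -0.12. Ywhag stood above Ywhab with coding length (ratio Ywhab to Ywhag -0.50) and with the longest transcript (-0.28). Ywhah, Ywhaq and Sfn were the 3 lowest, in this order, under every length tried. Ywhag has the greatest union exon length of the family, 5500 bases, against 2568 for Ywhae. The log2 ratio of Ywhae to Ywhag turned as well, from 0.97 ± 0.26 (SD, n = 4, Ywhae higher in 4 of 4 libraries) to -0.35 with coding length (higher in 1 of 4) and -0.13 with no division by length.

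**Figure D3:**
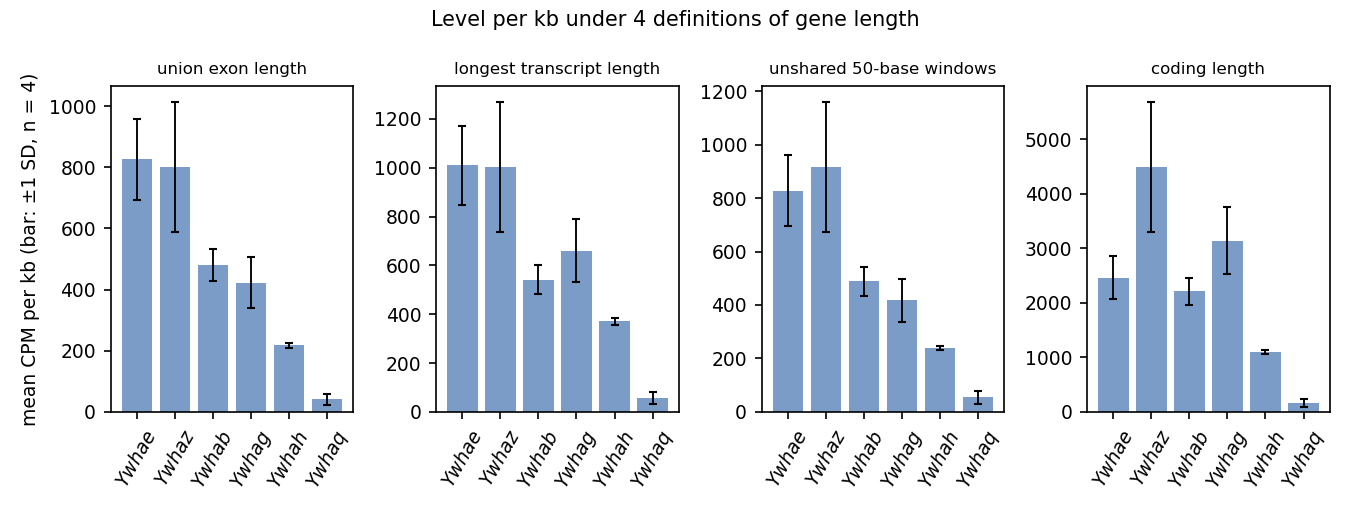
Mean CPM per kb (y axis, each panel with its own scale from 0, bars ±1 SD, n = 4) of 6 14-3-3 genes under 4 definitions of length. Ywhae and Ywhaz trade first place, Ywhab and Ywhag trade places, and Ywhah and Ywhaq are lowest in each panel. In the coding length panel Ywhag also stands above Ywhae.

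The make-up of the family, each member's share of the summed counts per kb, does not depend on how libraries are scaled. Ywhae held 29.6 ± 1.37% (SD, n = 4), Ywhaz 28.4 ± 3.13%, Ywhab 17.4 ± 1.16%, Ywhag 15.2 ± 2.06%, Ywhah 7.99 ± 1.48%, Ywhaq 1.42 ± 0.381% and Sfn 0.0222 ± 0.0383%. The shares do depend on the length used: with coding length Ywhae held 18.2 ± 1.10% and Ywhag 23.2 ± 2.90%, the opposite order. By union exon length Ywhaz held 30.6% in replicate 1 and 31.5% in replicate 4, against 25.3% in replicate 2 and 26.1% in replicate 3. Ywhag held 12.1% in replicate 1 and between 16.1 and 16.3% in the other 3. Ywhah ran from 6.30% in replicate 4 to 9.83% in replicate 3, the reverse of the summed level of the family, as follows by arithmetic for a gene whose own level hardly moved.

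**Figure D4:**
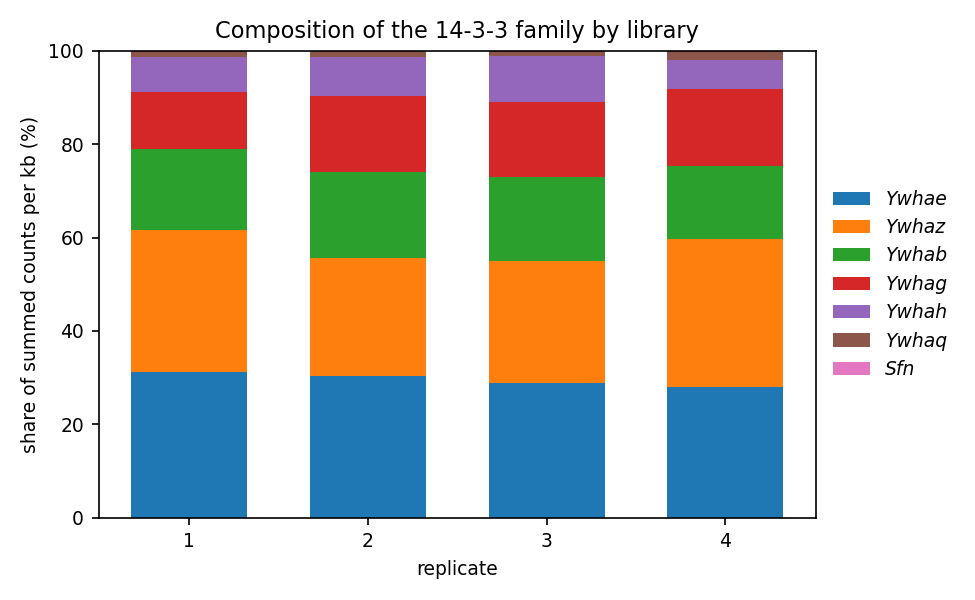
Share of each 14-3-3 gene in the summed counts per kb of the family (y axis, percent) in replicates 1 to 4 (x axis). Ywhae and Ywhaz fill over 50% of each bar, the Ywhag band is narrowest in replicate 1 (12.1%), and Sfn is too thin to see.

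Each library was then set against the other 3 over all genes with edgeR's quasi-likelihood test, Benjamini-Hochberg adjusted over 11227 genes, to ask whether a member stood apart in 1 library. The single library has no spread of its own and is assumed to vary like the other 3, so a p that misses the threshold does not show that a member did not differ. The 4 comparisons share libraries and are not independent. Of the 7 members 6 passed the filter on low counts, and Sfn did not. None of the 6 was called in any comparison, where edgeR called 0.00891, 0, 0 and 0.0534% of all genes for replicates 1 to 4. At an unadjusted p under 0.05 the count was 3 of 6 members for replicate 4 (15.1% of all genes) and 0 of 6 for replicates 1, 2 and 3 (3.78, 0.392 and 6.94% of all genes). DESeq2 called none of the 6 either. It called only a small part of all genes (counts given further below), and at such shares 6 members would hardly hold any. The absence of called members is thus no result about the family.

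Replicate 4, with the most distant library number, had fold changes above 0 for all 6 members (edgeR called 0.0445% of all genes higher there). That share counts only genes past the threshold, so it is no background for a count of signs. The share of all genes with a fold change above 0 is not given here. The median of the 6 members was 0.50 on the log2 scale, against -0.05 over all genes tested. Ywhaq was higher there by 1.14 ± 0.33 (log2, SE, edgeR adjusted p = 0.188), with 199.6 CPM against 127, 95.5 and 78.4 CPM in replicates 1 to 3. Ywhaz had a log2 fold change of 0.67 ± 0.25 (edgeR adjusted p = 0.255) and Ywhag of 0.62 ± 0.25 (adjusted p = 0.271). Ywhae and Ywhab had log2 fold changes of 0.37 ± 0.25 and 0.29 ± 0.25 (edgeR adjusted p = 0.506 and 0.604). For Ywhah the value was 0.05 ± 0.26 (edgeR adjusted p = 0.957), and its sign turned with library totals in place of TMM scaling (-0.08), which also moved the median of all genes to -0.18. Without a filter on low counts Ywhaq passed the threshold (log2 fold change 1.17, edgeR adjusted p = 0.0497), and under the other alternatives the lowest adjusted p of any member ran from 0.0817 to 0.422. The summed levels of the Purkinje cell, granule cell, inhibitory neuron and astrocyte markers, though not every marker in them, were lowest in replicate 4, and their part in these values was not tested.

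In replicate 3 the fold changes of 5 of the 6 members were below 0, with a median of -0.33 against -0.05 over all genes. Ywhaq had -0.83 ± 0.52 (edgeR adjusted p = 0.801) and Ywhaz -0.52 ± 0.49 (adjusted p = 0.899), while Ywhah had 0.09 ± 0.43. In replicate 1 the lowest value was that of Ywhag, -0.47 ± 0.41 (edgeR adjusted p = 0.990). In replicate 2 the 6 values lay from -0.50 for Ywhaq to -0.01 for Ywhab.

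**Figure D5:**
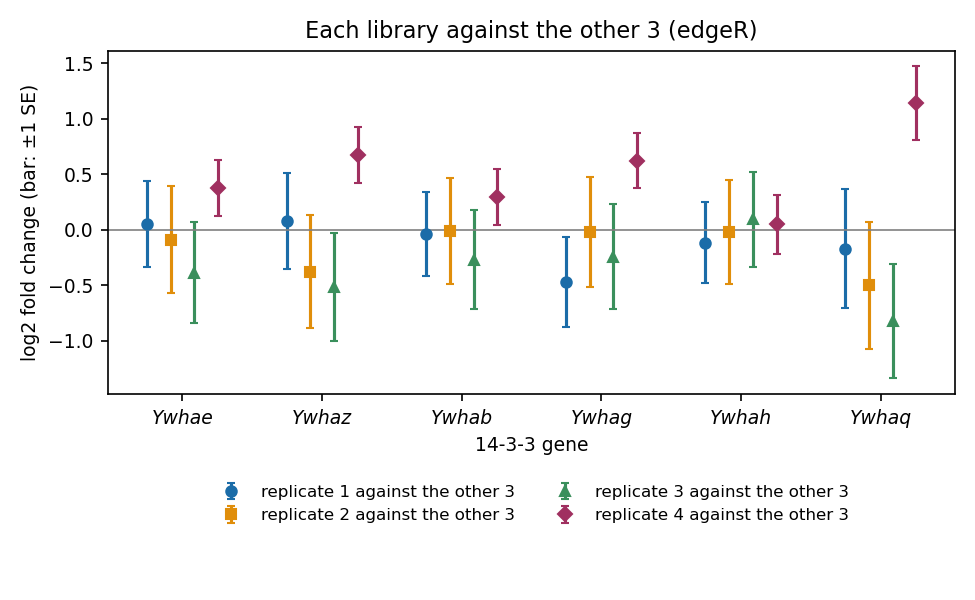
Log2 fold change of each library against the other 3 (y axis, edgeR, bars ±1 SE) for 6 14-3-3 genes (x axis). Replicate 4 lies above 0 for all 6 genes, from 0.05 for Ywhah to 1.14 for Ywhaq, and replicate 3 lies lowest for Ywhae, Ywhaz, Ywhab and Ywhaq.

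Members differed in how steady they were. Over the 2139 tested genes of at least 100 CPM, the median SD of log2(CPM + 0.5) between libraries was 0.32. Ywhah had an SD of 0.055, and 21 of the 2139 genes (0.982%) were steadier. With TMM scaling 22 genes were steadier than Ywhah, with DESeq2 size factors 37 and without Rn45s in the totals 86. Without Rn45s the SDs of Ywhah and Ywhab were nearly the same, 0.103 and 0.108, and 97 genes were steadier than Ywhab. The SDs that follow are by library totals unless another scaling is named. Ywhab had an SD of 0.16, Ywhae 0.24 and Ywhag 0.27, below the median of all these genes. With TMM scaling Ywhag stood at 0.35, above the median of 0.33. Ywhaz, at 0.39, had 63.1% of genes steadier than itself, but without Rn45s in the totals it stood at 0.31, below the median of 0.32, with 47.5% steadier. Ywhaq, at 0.58, had 87.5%.

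The genes whose pattern over the 4 libraries was most like the family sum were found by the root mean square difference of centred log2(CPM + 0.5), among 2133 other genes of at least 100 CPM. The 5 nearest were Smarcal1 (0.018), Stox2 (0.019), Dnajc5 (0.024), Grm5 (0.027) and Rnf14 (0.028). Dnajc5 encodes a chaperone of synaptic vesicles, Grm5 a metabotropic glutamate receptor and Smarcal1 an enzyme that reanneals DNA at stalled replication forks. Grm5, for example, stood at 148, 123, 111 and 161 CPM in replicates 1 to 4. The nearest to Ywhaz alone were Mllt3 (0.018), Car10 (0.023) and Fam63b (0.026). With 4 libraries many genes come close to any pattern, and when genes of at least 10 CPM were allowed 3 of the 5 and 1 of the 3 stayed among the nearest.

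Proteins known to bind 14-3-3 were described through 50 client genes, of which 44 reached 1 CPM in every library and 44 were tested. Their median was 5.69 CPM per kb, against 6.21 over all genes tested. The highest by CPM were Braf, a kinase of the MAP kinase pathway, at 408 ± 31.6 CPM (29.4 CPM per kb), Nedd4l, a ubiquitin ligase, at 303 ± 136 (17.2 per kb), Adam22, a synaptic receptor for Lgi1, at 280.5 ± 38.9 (19.5 per kb) and Larp1, a translation regulator, at 272 ± 60.1 (39.8 per kb). The lowest was Tph2, the serotonin-synthesising enzyme of raphe neurons, at 0.0485 ± 0.0970 CPM. No client gene was called in any library comparison by edgeR. In replicate 4 the median log2 fold change of clients was 0.16, and that of all genes tested -0.05.

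Of 34 genes for kinases that write 14-3-3 binding sites, 32 were tested, with a median of 11.0 CPM per kb. Pak1, a kinase downstream of small GTPases, led at 1147 ± 342 CPM (291 CPM per kb). Prkacb and Prkaca, catalytic subunits of protein kinase A, followed at 892 ± 118.5 CPM (102 per kb) and 625 ± 199 CPM (251 per kb), and Camk2b, a calcium-dependent kinase, at 430 ± 76.1 CPM (47.2 per kb). Chek1, a checkpoint kinase of dividing cells, was lowest at 0.350 ± 0.312 CPM. None of the 32 was called by edgeR, and the median log2 fold change in replicate 4 was 0.14.

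All 12 phosphatase genes, whose products can release clients by removing the phosphate, were tested, with a median of 17 CPM per kb. Ppp3r1 and Ppp3ca, the regulatory and a catalytic subunit of calcineurin, stood at 561 ± 174 CPM (174 per kb) and 425 ± 96.4 CPM (42.5 per kb). Ppp1cb, a catalytic subunit of protein phosphatase 1, and Ppp2r1a, the scaffold of protein phosphatase 2A, stood at 204 ± 55.0 CPM (18.7 per kb) and 194 ± 26.9 CPM (57.0 per kb). Ppp1ca was lowest by CPM at 26.2 ± 10.6 (10.4 per kb). None was called by edgeR, and the median log2 fold change in replicate 4 was -0.24.

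Of 9 genes listed for phosphorylation of the 14-3-3 proteins themselves, which can split the dimer or release clients, 8 were tested, with a median of 24.3 CPM per kb. Mapk10 and Mapk9, kinases of the JNK group, stood at 1211 ± 145 CPM (109 per kb) and 828 ± 42.8 CPM (122 per kb), and Csnk1e, a casein kinase, at 161 ± 18.5 CPM (24.4 per kb). Prkaca belongs to this list too. Sphk1, a lipid kinase also on it, was lowest at 1.55 ± 1.73 CPM. None of the 8 was called by edgeR. No called gene belonged to any of the 4 lists. At the shares of all genes called, given above for each library, lists of this size would hardly hold any. The absence of calls is thus no result about the lists.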

How the data were processed

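The authors deposited 1 table per library with whole-number counts per gene name and the counter's own summary rows. Per the submitters' processing notes, STAR 2.0.0e, HTSeq and the build mm10 were used. Annotation, read length and strandedness: not given in the sources used here. Reads without a feature made up 14.1 to 21.1% of counted reads, and summary rows stayed out of totals and tests. CPM used all named genes, and lengths came from GENCODE M21, which matched 73.4% of names and all 7 members. The shared windows were exact matches, copies came from blastn 2.17.0 (at least 200 bases, 90% identity) and the alignment from mafft 7.526. edgeR 4.0.16 in R 4.3.3 used TMM, filterByExpr without groups, robust glmQLFit and glmQLFTest, with 2 residual degrees of freedom and a threshold of 0.05. The fit was tested on simulated data. SE is the fold change divided by the root of F. Ratios used 0.5 added counts. A check for duplicated libraries found none (chi-square over its degrees of freedom 32.9 to 119 between libraries).

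The members, lists and tests were chosen with earlier results of these data known. Named were all members, the 4 highest and the lowest gene by CPM of each related list, called list genes, the nearest genes in pattern, the highest marker of each list (1 marker list is not reported here), and gene copies. Alternatives were DESeq2 1.42.0, other scalings, no filter, other lengths and pseudocounts, and leaving out each replicate. The length in windows found in no other gene, the sum without Ywhaz and the fit without Rn45s were added after seeing the data.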

Additional observations from a re-analysis of the deposited data

Results flagged for a closer look

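In each of 21 quantities of the family (levels, shares, the sum and neighbour ratios) the library farthest from the other 3 was examined by Dixon's ratio at its 95% critical value. Chance passes it in about 1 of 20 groups, and 3 of the 21 quantities did, of which 2 are the same Sfn counts. The level of Sfn in replicate 2 was 3.30 CPM, far from the other libraries, and its share of the family per kb there was 0.0795%. The share of Ywhag in replicate 1 was 12.1% of the family per kb, below the other 3 libraries. The level of Ywhag was 2004 CPM in replicate 1 and 2020 CPM in replicate 3 by library totals, and 1820 and 2060 CPM with TMM scaling.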

How the results depend on the processing

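No paired analysis was possible because all libraries belong to 1 group. The count of genes that edgeR called for replicate 1 (1 gene), replicate 2 (0), replicate 3 (0) and replicate 4 (6) changed with some settings, and the cause was not tested. DESeq2 called 14, 1, 69 and 342 genes in these comparisons, and edgeR with no filter on low counts called 32, 0, 86 and 416. For replicate 4, library totals without TMM, and totals without Rn45s, each gave 0. Leaving out 1 other library gave 10 to 56 calls for replicate 1, 0 to 2 for replicate 2, 1 to 20 for replicate 3 and 35 to 173 for replicate 4. Members were called in none of these, save Ywhaq in replicate 4 with no filter (1 member). The log2 fold change of Ywhah in replicate 4 turned to -0.084 with library totals and to -0.18 without Rn45s. The mean level of Ywhah moved from 808 ± 30.7 CPM to 895 ± 63.4 CPM when Rn45s was left out of the totals. The ratio Ywhae to Ywhaz turned with coding length (-0.84), with no length division (-0.61) and with windows found in no other gene (-0.12). The ratio Ywhab to Ywhag turned with the longest transcript (-0.28), coding length (-0.50) and no length division (-0.50). The other 4 neighbour ratios kept their sign in every setting run. The sum of the family without Ywhaz was 7008 CPM, and every other scaling or left-out library moved the sum by less than 1 SD. Sfn, with at most 2 counts in 3 libraries, is limited by depth.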

Other observations

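Ywhae and Ywhab kept a nearly fixed ratio although each moved between libraries. Among the pairs of the 6 YWHA genes the ratio of Ywhae to Ywhab had the smallest spread, a log2 ratio per kb of 0.77 ± 0.08 (SD, n = 4) that ran from 0.69 to 0.85. The next smallest were Ywhae to Ywhaz (0.07 ± 0.18) and Ywhab to Ywhah (1.14 ± 0.19). The ratio of Ywhab to Ywhah varied more than the level of either gene (SD of log2 level 0.16 for Ywhab and 0.055 for Ywhah). Ywhaz and Ywhaq, the members with the widest spread of their own level, differed by 4.35 ± 0.24, from 4.0 to 4.54. The widest spread was that of Ywhah to Ywhaq, 2.51 ± 0.62. The spread of a ratio is given here as a description without a test.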
